A study of Mus musculus with 4 samples.

Results

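Genes of the transforming growth factor beta (TGF-beta) pathway were followed in macrophages sorted from mouse lung: the ligands Tgfb1 and Tgfb2, Nrros and Furin, which hold the ligand latent or process it, the receptor chains Tgfbr1 and Tgfbr2, the inhibitors Smad7 and Skil, and the target Tgfbi. They are 9 of the 32285 genes in the count files and were chosen by name, with earlier results of these data known. The cells were assigned to classes by other genes. A barcode counted as a cell when it held 1000 or more UMIs (counted molecules) from 500 or more genes, with mitochondrial UMIs at or under 10%. It was an alveolar macrophage (AM) where Chil3, Ear1, Ear2, Fabp1, Lpl and Plet1 together held at least 0.4% of its UMIs and more UMIs than C1qa, C1qb and C1qc. It was an interstitial macrophage (IM) where the 3 C1q genes held at least 5 UMIs and more than the 6 AM genes, and all remaining cells were called other.

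All animals were female. The 4 groups were wildtype FVB mice at 16 weeks (wildtype early), MMTV-HER2 mice at 16 weeks (HER2 early), wildtype FVB mice at 32 weeks (wildtype late) and MMTV-HER2 mice at 32 weeks with palpable tumours (HER2 late). In MMTV-HER2 mice a mouse mammary tumour virus promoter drives the HER2 oncogene chiefly in mammary epithelium. No other allele or treatment is given for any group. Each group was 1 library of a 10x 3′ assay, and neither the number of mice in a library nor the sort gate is given in the sources used here.

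TGF-beta is made as a precursor that furin, a proprotein convertase, cuts into the growth factor and a latency peptide that stays bound to it. On myeloid cells NRROS can anchor this latent complex to the surface, and integrins can release the active ligand from it. The ligand joins a type II receptor (TGFBR2) to a type I receptor (TGFBR1), which phosphorylates SMAD2 and SMAD3. SMAD7 blocks the type I receptor, and SnoN, the product of Skil, represses Smad-driven transcription. TGFBI is a secreted matrix protein whose gene is a classical target. In the lung, alveolar macrophages need autocrine TGF-beta for their development and upkeep.

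The libraries held between 28786682 and 39228655 UMIs and between 5126 and 6554 cells, of which 4245 to 5702 were AM and 330 to 661 IM. The class rule separated markers it did not use, though not all of them equally well. Siglecf, of AM, stood at 104 to 118 CPM (UMIs per 1000000 of the class) in AM and 4.40 to 7.07 in IM. Ms4a7, of IM, stood at 4.02 to 8.23 CPM in AM and 423 to 476 in IM. Less clear were Marco, of AM, at 55.0 CPM in AM and 28.6 in IM of wildtype early, and Car4, of AM. Car4 stood at 129 to 177 CPM in AM and 242 to 453 in other cells. Of the listed IM markers Mrc1 was the highest in AM of every library. Between 1 and 13 barcodes were shared by any pair of libraries. The IM class of wildtype early stood apart. Its summed T cell markers (Cd3d, Cd3e, Cd3g, Trac, Trbc1, Trbc2, none at 0) reached 1888 CPM, against 54.6 to 209 CPM in the other 3 libraries. There 139 of 330 IM cells (42.1%) held at least 3 UMIs of T cell, B cell, NK cell, endothelial or fibroblast markers, against 4.39 to 7.11% in the other libraries, and IM results are given with and without such cells. With 1 library per group, differences between groups have no replicate check, and intervals cover counting error only.

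In the mouse genome (GRCm38) Tgfb1 lies at chr7:25687002-25705077 and Furin at chr7:80388585-80405436. Tgfb2 lies at chr1:186622792-186705989, Skil at chr3:31095058-31122577 and Tgfbr1 at chr4:47353222-47414931. Tgfbr2 lies at chr9:116084293-116175360, Tgfbi at chr13:56609523-56639562 and Nrros at chr16:32142785-32165594. No member shared its last 300 transcribed bases with a near-identical copy elsewhere or overlapped another gene there, so that its 3′ UMIs could be assigned to it. Of the 9 members 7 had a promoter window in the RefSeq table (GRCm38.p6). Shown are the windows of Nrros, Furin, Tgfbr1 and Tgfbr2, whose CPM was lower in AM of late HER2 mice than of late wildtype mice, and that of Tgfbi, whose CPM was not. They were picked after these values were seen. In the same comparison 28.5% of all genes tested were lower past the limit given below, and relative to the median gene none of the 7 members tested passed it. Each is given 5′ to 3′ on the strand of its gene and holds the bases before the start that lie outside the gene. Capitals mark GGCGC, a GC-type Smad site, or CAGACA, a Smad box, on either strand.
Nrros, chr16:32165595-32165844, minus strand: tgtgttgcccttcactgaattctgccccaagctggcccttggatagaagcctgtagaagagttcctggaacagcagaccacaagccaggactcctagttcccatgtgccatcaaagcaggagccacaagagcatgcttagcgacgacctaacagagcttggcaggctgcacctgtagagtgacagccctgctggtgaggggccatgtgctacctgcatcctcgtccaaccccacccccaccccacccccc
Furin, chr7:80405437-80405686, minus strand: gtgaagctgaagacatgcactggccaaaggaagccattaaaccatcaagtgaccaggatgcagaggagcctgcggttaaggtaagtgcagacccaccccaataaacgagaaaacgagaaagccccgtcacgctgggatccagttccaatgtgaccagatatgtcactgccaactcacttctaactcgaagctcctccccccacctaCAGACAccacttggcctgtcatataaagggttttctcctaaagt
Tgfbr1, chr4:47352972-47353221, plus strand: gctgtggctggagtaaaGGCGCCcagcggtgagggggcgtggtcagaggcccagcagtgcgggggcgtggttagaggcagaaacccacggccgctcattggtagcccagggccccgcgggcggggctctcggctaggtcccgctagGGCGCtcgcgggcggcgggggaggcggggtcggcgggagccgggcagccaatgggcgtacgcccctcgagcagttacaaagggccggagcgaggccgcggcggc
Tgfbr2, chr9:116175364-116175613, minus strand: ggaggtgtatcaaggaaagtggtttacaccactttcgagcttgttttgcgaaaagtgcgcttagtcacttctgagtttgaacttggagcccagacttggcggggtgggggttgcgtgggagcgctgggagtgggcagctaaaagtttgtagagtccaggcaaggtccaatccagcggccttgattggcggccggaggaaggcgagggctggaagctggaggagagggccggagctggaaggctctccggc
Tgfbi, chr13:56609336-56609522, plus strand: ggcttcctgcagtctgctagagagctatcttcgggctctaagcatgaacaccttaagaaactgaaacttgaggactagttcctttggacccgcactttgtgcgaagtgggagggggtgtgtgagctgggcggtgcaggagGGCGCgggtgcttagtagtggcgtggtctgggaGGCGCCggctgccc
GGCGC, searched on both strands, had 3 matches in the Tgfbi window, 110, 77 and 76 bases before the RefSeq start, and 3 in the Tgfbr1 window, 233, 232 and 104 bases before it. The RefSeq start of Tgfbi lies 63 bases inside the gene as placed above, so its printed stretch ends that much before it. In each window the pair of adjacent matches overlaps. CAGACA had 1 match in the printed Furin window, 44 bases before the start. The table holds a second window for Furin and for Tgfbr1, each inside the gene and not printed. That of Furin held 7 matches of GGCGC and 1 of CAGACA, and that of Tgfbr1 held 1 of CAGACA. The windows of Nrros and Tgfbr2 held neither motif, and none of these 7 windows held the Smad palindrome GTCTAGAC or the AP-1 site TGAGTCA. Among all 32851 windows GGCGC was found in 32.0%, CAGACA in 17.1%, TGAGTCA in 4.46% and GTCTAGAC in 0.167%. These matches describe the letters of the window only.

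Tgfb1, the main ligand of immune cells, had close levels in AM of the 4 libraries. It stood at 268 and 276 CPM in the early libraries (wildtype, then HER2) and at 289 and 281 CPM in the late ones. The levels thus spread by 3.24% (coefficient of variation, n = 4), where the median of 7162 genes of at least 10 CPM spread by 10.1%. Those genes were not matched to Tgfb1 in level, and counting error is larger at low levels. The closeness also holds for CPM only: HER2 over wildtype late had a log2 fold of -0.04, but 0.16 relative to the median gene. In IM the level was 209, 217, 319 and 300.3 CPM in the same order, which is kept for all values listed by library below, so that both early libraries lay below their AM and both late libraries above. Over the 4 libraries, edgeR's paired quasi-likelihood test gave a log2 fold of IM over AM of -0.36 ± 0.12 (SE), with an adjusted p of 0.0249. This call was lost under several alternatives. With library totals alone the fold was -0.11 (adjusted p = 0.41), and without the IM cells that held markers of other cells it was -0.23 (adjusted p = 0.070). The adjusted p was 0.079 without a replicate block, 0.052 without wildtype early and 0.10 without HER2 early.

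Tgfb2, a ligand made mostly by structural cells, was rare throughout. AM held 4.16, 3.73, 0.649 and 2.47 CPM, from 95, 68, 14 and 68 UMIs. The free RNA in the suspension, read from barcodes with 10 to 100 UMIs, held 9.27, 3.67, 1.07 and 2.86 CPM in the same order, from 2 to 11 UMIs. The AM level was thus under or close to that of free RNA in every library, and both were lowest in wildtype late. In IM the level was 5.24, 12.1, 6.63 and 3.88 CPM, and 3 cells of each library held 71.4 to 92.3% of these UMIs. The paired test gave a log2 fold of IM over AM of 1.12 ± 0.43 (adjusted p = 0.0443, edgeR), higher in 4 of 4 libraries. It missed the threshold without a replicate block (adjusted p = 0.12), with free RNA subtracted (0.080) and without wildtype late (0.11) or HER2 early (0.20).

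Nrros, which encodes the milieu molecule that tethers latent TGF-beta on myeloid cells, was higher in IM than in AM in every library. AM held 37.8, 41.1, 59.0 and 41.9 CPM, with wildtype late the highest. The free RNA of the suspension held 62.4, 63.7, 90.8 and 101.6 CPM of Nrros, above the AM level of each library. IM held 79.4, 88.0, 109.6 and 81.5 CPM, and the classes did not overlap. The ratio of these CPM within a library was 1.86 to 2.14. The test, which scales by TMM factors, gave a smaller rise in IM of 0.76 ± 0.08 on the log2 scale, or 1.69-fold (adjusted p = 2.38e-05). Without the IM cells holding other markers the rise was 0.83.

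Furin, the convertase, was lower in IM. AM held 101, 95.4, 131.5 and 102.7 CPM, and IM held 50.4, 75.5, 124 and 80.2 CPM. IM lay below AM in 4 of 4 libraries, by a factor of 0.500 in wildtype early and 0.944 in wildtype late. The fall in IM was -0.67 ± 0.15 (log2, adjusted p = 0.0029, edgeR) and -0.53 without the IM cells holding other markers. Within AM and within IM, wildtype late was the highest of the 4 libraries for Furin and for Nrros.

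Tgfbr1, the type I receptor, was higher in IM, while Tgfbr2, the type II receptor, passed the test as lower there with overlapping ranges. Tgfbr1 stood at 152, 148, 181 and 130.3 CPM in AM and at 223, 239.9, 379 and 289 CPM in IM, with no overlap. The test gave a rise in IM of 0.62 ± 0.12 on the log2 scale (adjusted p = 0.0016), and 0.75 without the IM cells holding other markers. Tgfbr2 stood at 181, 196, 268 and 199 CPM in AM and at 172, 214, 210.3 and 162 CPM in IM. The ranges overlapped, and IM was above AM in HER2 early and below it in the other 3 libraries. The fall of Tgfbr2 in IM was -0.40 ± 0.09 (adjusted p = 0.0049), and it was -0.15 (adjusted p = 0.22) with library totals and no scaling factor.

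Smad7, the inhibitory Smad that the pathway induces against itself, showed the widest gap of the 9 members between macrophage classes. AM held 3.85, 4.61, 3.76 and 4.90 CPM, from 81 to 135 UMIs a library. The free RNA of the same libraries held 8.43, 11.02, 4.81 and 5.01 CPM, so that the AM level did not exceed that of the suspension. IM held 46.4, 41.9, 33.6 and 45.5 CPM, which is 8.94 to 12.04 times the AM level within a library. The rise in IM was 3.04 ± 0.12 on the log2 scale (adjusted p = 4.80e-08), and 2.80 without the IM cells holding other markers. In those remaining IM cells the level was 29.9, 36.9, 26.7 and 41.1 CPM. Other cells held still more, 107 to 201 CPM, and among them the 288 cells with endothelial markers held 315 CPM (95% interval 291 to 339.5).

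Skil, the second inhibitor, did not pass the test between the classes. It stood at 117, 103.5, 126 and 100.2 CPM in AM and at 114, 129, 147 and 128 CPM in IM, with overlapping ranges. The log2 fold of IM over AM was -0.03 ± 0.10 (adjusted p = 0.80), and its sign turned with library totals (0.22, adjusted p = 0.062), without wildtype early (0.07) and without the IM cells holding other markers (0.03).

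Tgfbi, the matrix target, was higher in IM than in AM in every library. AM held 106.7, 77.2, 81.2 and 87.6 CPM, and IM held 355, 383, 501 and 444 CPM. The classes did not overlap, and the ratio within a library ran from 3.33 in wildtype early to 6.17 in wildtype late. The rise in IM was 2.01 ± 0.15 (log2, adjusted p = 2.46e-06), and 2.17 without the IM cells holding other markers. The free RNA of the suspension held 126, 102, 120 and 119 CPM of Tgfbi, above the AM level of each library.

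**Figure D1:**
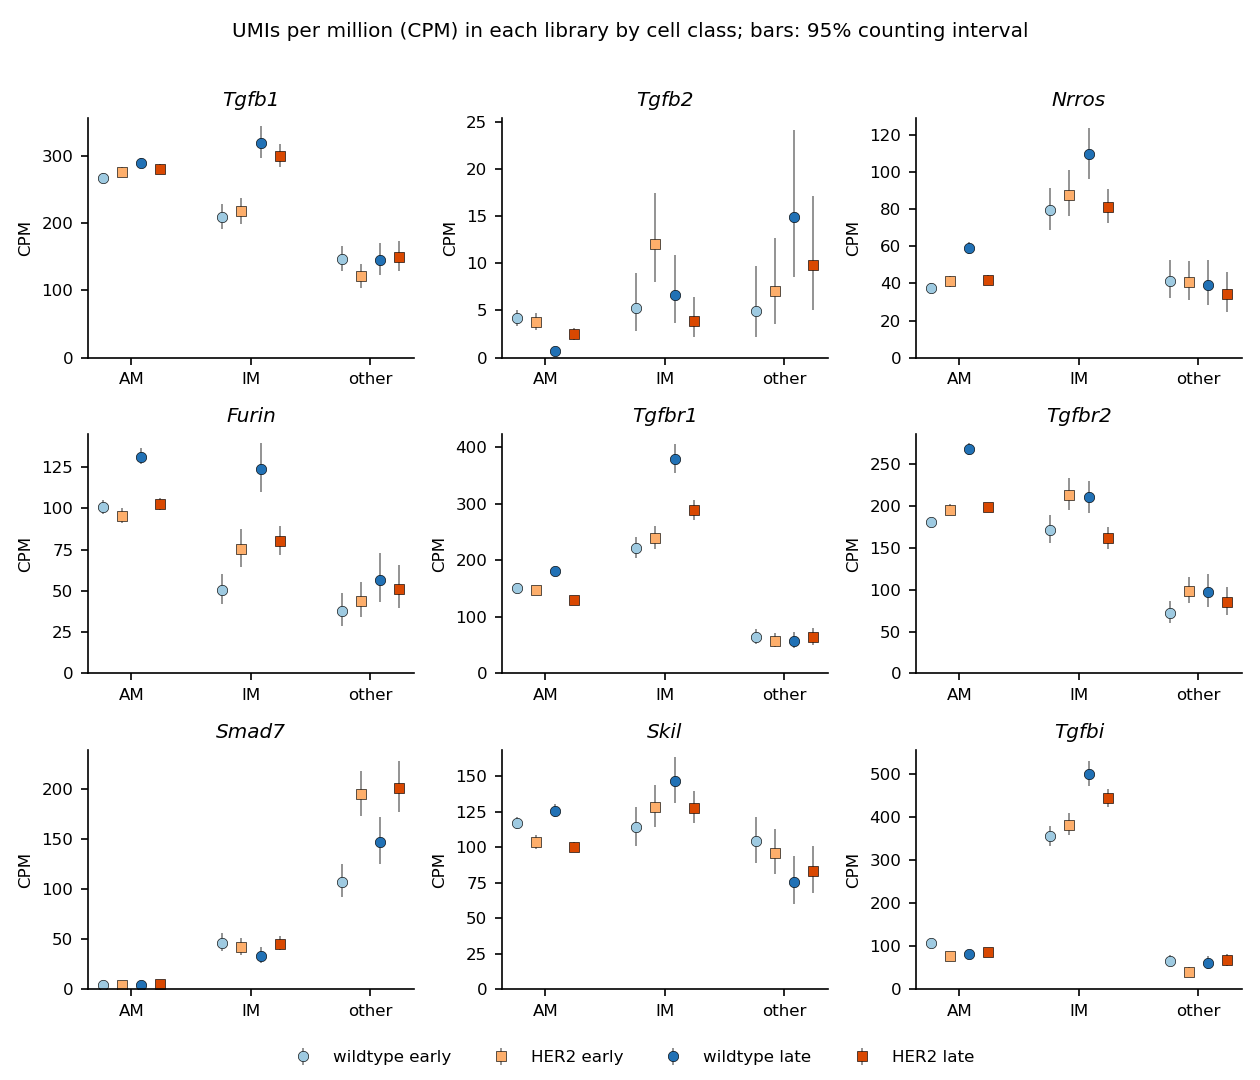
Level of each member in UMIs per 1000000 (CPM, linear axes from 0) in AM, IM and other cells of the 4 libraries; points are single libraries and bars the 95% counting interval. Tgfbi and Tgfbr1 of IM lie above all AM libraries, Smad7 is near 0 in AM, and Tgfb1 of AM lies between 268 and 289 CPM.

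In all, 8 of the 9 members passed the test between IM and AM, 5 higher and 3 lower in IM. This share is to be read against a background in which 62.8% of 11897 genes passed (32.0% higher, 30.8% lower). The median absolute log2 fold was 0.67 over the members and 0.56 over all genes tested. The count was 7 without the IM cells holding other markers. Gm42418, a gene that overlaps ribosomal RNA, took 16.5 to 19.6% of AM UMIs and 3.74 to 6.18% of IM UMIs, and library totals in place of TMM factors moved the median of all genes by 0.25 on the log2 scale. The directions of Nrros, Furin, Tgfbr1, Smad7 and Tgfbi held, with their calls, under either scaling.

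The other genes of the pathway were read from 6 lists. The lists hold 101 genes. Of the ligands tested, members included here and below, 5 of 8 were higher in IM and 3 lower, and without the IM cells holding other markers 2 of 5 were higher and 2 lower. Gdf15, a distant ligand of the family, had a log2 fold of IM over AM of -3.50 ± 0.21 (SE, as for the folds that follow). Inhba, which encodes the activin A subunit, passed the test as lower in IM, at 0 to 0.442 CPM against 1.75 to 3.13 CPM in AM. Tgfb3, the third TGF-beta, passed the test as higher in IM at 2.07 to 3.54 CPM, where AM held 0 to 0.145. Bmp2, a bone morphogenetic protein, was higher in IM by 4.35 ± 0.59, and too low to test once the cells holding other markers were left out.

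Latency and activation genes were mostly higher in IM, 10 of 13 against 2 lower, with the same counts under library totals and 8 of 11 against 2 without the IM cells holding other markers. Mmp9 and Mmp14, proteases able to free latent ligand, were higher by 6.30 ± 0.23 and 5.30 ± 0.37. The 3′ end of Mmp14 has near-identical stretches in 3 other genes, so its counts are uncertain. Itgb5, an integrin beta chain that binds latent TGF-beta with the alpha V chain, was higher by 1.77 ± 0.09. Emilin1, a matrix glycoprotein that restrains processing of the precursor, was lower, at -2.30 ± 0.14.

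Of the receptors, 6 of 12 were higher in IM and 3 lower, with 4 and 3 of 11 without the IM cells holding other markers. Eng, which encodes the coreceptor endoglin, was higher by 2.91 ± 0.17. Tgfbr3, betaglycan, was higher by 3.19 ± 0.31 but too low to test without the IM cells holding other markers. Acvr1b, the type I activin receptor, was lower, at -1.43 ± 0.14. Acvrl1, a type I receptor whose 3′ end is shared with Gm16031, was higher by 0.86 ± 0.14.

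Among Smads and partners 7 of 14 were higher and 4 lower in IM. The receptor-activated Smad3 stood at 8.39 to 13.3 CPM in IM and 0.131 to 0.399 CPM in AM, a log2 fold of 5.13 ± 0.35. Smad1, of the bone morphogenetic branch, was lower, at -0.70 ± 0.10. The endosomal adaptor Hgs stood at -0.67 ± 0.11, and the spectrin Sptbn1 at -0.48 ± 0.08.

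Of the inhibitors 9 of 17 were higher and 3 lower. Pmepa1, which sequesters receptor-activated Smads, was higher by 6.04 ± 0.23 and Bambi, a decoy receptor, by 4.57 ± 0.44. Nedd4l, a ubiquitin ligase for activated Smads, was higher by 2.70 ± 0.19, and Ppp1r15a, a phosphatase subunit, by 1.34 ± 0.13.

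Of the targets 11 of 21 were higher and 7 lower, with 7 and 7 of 18 once the IM cells holding other markers were left out. The transglutaminase Tgm2 went against Tgfbi and was lower in IM, with a log2 fold of -2.78 ± 0.14. Cx3cr1, a chemokine receptor that also marks IM, was higher by 6.23 ± 0.25.

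**Figure D2:**
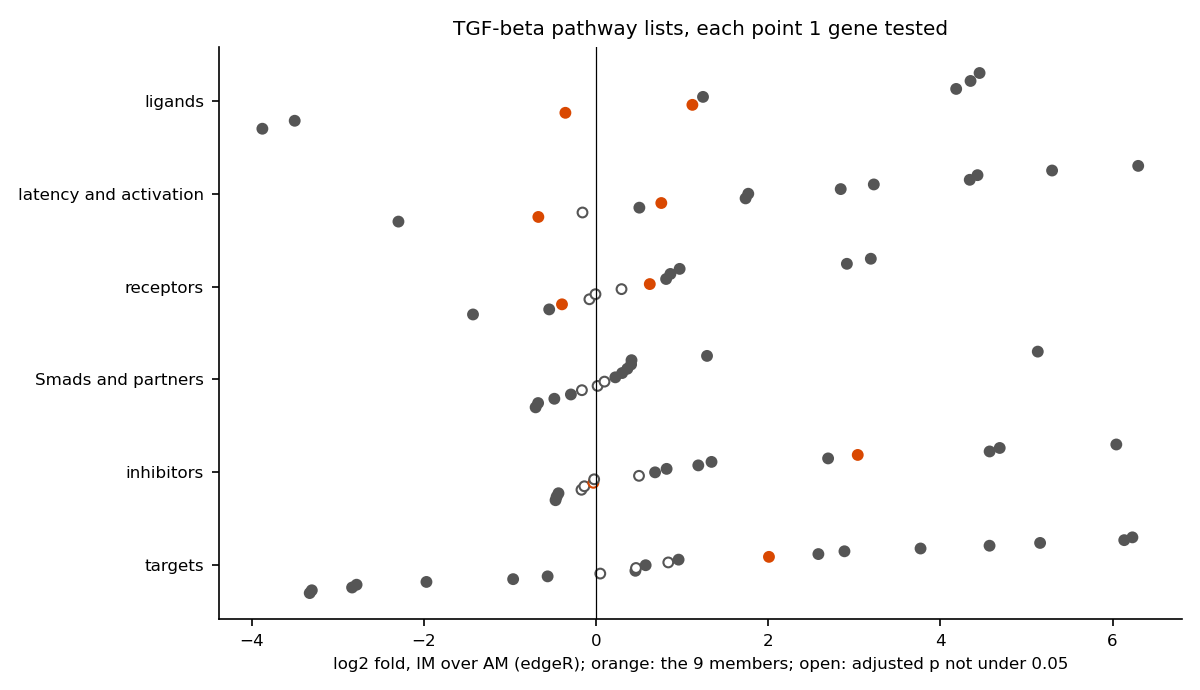
Log2 fold of IM over AM (edgeR, x axis) for each tested gene of the 6 pathway lists (y axis), with the 9 members in orange and genes that did not pass the test as open points. Latency and activation genes lie mostly to the right, with 10 of 13 higher in IM, and the targets spread to both sides, 11 higher and 7 lower.

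The first question of the design was what the HER2 genotype changed at 16 weeks, the early-lesion stage. In AM the members were close between genotypes, and only Tgfbi passed the limit used as a call, a log2 fold of CPM of 0.32 in either direction, at 77.2 CPM in HER2 early against 106.7 in wildtype early. Its log2 fold was -0.47 (95% interval -0.56 to -0.37). No other member of the 7 with at least 10 CPM passed it. In this comparison 1.95% of 7064 genes did, 1.36% on the lower side, and 0.736% of genes lay further from the median gene than Tgfbi. The free RNA of Tgfbi was also lower, at 102 against 126 CPM, and with free RNA subtracted the fold was -0.47. AM of wildtype early held 38.7 CPM of T cell markers and AM of HER2 early 2.58, whose part in the result was not tested. The authors' deposited table of AM averages gives -0.44 for Tgfbi. Among the pathway lists in AM, Fn1, the matrix protein fibronectin, was the other gene past the limit, at 47.4 CPM in HER2 early and 115.5 in wildtype early. The next on the lower side was the activin receptor Acvr1 at -0.24, and on the higher side the inhibitor of differentiation Id3 at 0.31, Emilin1 at 0.18 and Gdf15 at 0.17, all within the limit.

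At 32 weeks, with palpable tumours, 5 of 7 members were lower in AM of HER2 mice, where 28.5% of 7212 genes were. Nrros stood at 41.9 CPM in HER2 late and 59.0 in wildtype late, a log2 fold of -0.49 (-0.61 to -0.38). Tgfbr1 stood at 130.3 and 181 CPM, a log2 fold of -0.47 (-0.54 to -0.41), and Tgfbr2 at 199 and 268 CPM, a log2 fold of -0.43 (-0.49 to -0.38). Furin had a log2 fold of -0.36 (-0.43 to -0.28) and Skil of -0.33 (-0.41 to -0.25). Tgfb1 (-0.04) and Tgfbi (0.11) were within the limit.

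Many other genes were lower in the same comparison. In AM of the late stage 33.3% of genes passed the limit in either direction, and the median gene had a log2 fold of -0.20. Relative to that median, where 17.9% of genes passed, no member did: Nrros stood at -0.29, Tgfbr1 at -0.27 and Tgfbr2 at -0.23. With median-ratio size factors the count was 0 of 7, and with cells thinned to 2000 UMIs it was 3. Free RNA was estimated at 13.9% of AM UMIs in HER2 late and 8.74% in wildtype late. This estimate divides the C1q share of AM by the C1q share of free RNA. C1q RNA of any other origin in AM is therefore counted as free RNA. In IM of the same libraries the estimate, made from the 6 AM genes, was 4.76% and 4.35%. With the AM estimate subtracted the fold of Nrros was -0.79. In the authors' deposited table of AM averages the log2 folds were -0.48 for Nrros, -0.40 for Tgfbr1, -0.42 for Tgfbr2, -0.35 for Furin and -0.31 for Skil. Of the pathway lists, 4 of 7 receptors, 4 of 7 latency and activation genes and 4 of 9 inhibitors were lower, members included. None of these lists had a gene that was higher. In the remaining lists 1 of 11 Smads and partners was lower, 3 of 13 targets were higher and 3 lower, and 1 of 2 ligands was higher. Ldlrad4, which keeps Smads from the receptor, was lower with a log2 fold of -0.51, as was the proto-oncogene Myc (-0.46). Fn1 (1.09) and Gdf15 (0.41) were among those on the higher side. Relative to the median gene no list had a lower gene, and 6 of 13 targets were higher.

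Smad7 and Tgfb2 lay under 10 CPM in AM and were not counted. Tgfb2 had a log2 fold of 1.93 (1.08 to 2.87) of HER2 over wildtype at the late stage, from 68 and 14 UMIs. In wildtype late 3 cells held 42.9% of these UMIs, and the free RNA of Tgfb2 was lower there too, as given above. Smad7 had log2 folds of 0.26 (-0.19 to 0.71) early and 0.38 (-0.03 to 0.80) late, so that no genotype difference was detectable at this depth.

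Between the stages 4 members passed the limit in AM of wildtype libraries and none in AM of HER2 libraries. Nrros was higher in wildtype late than in wildtype early by a log2 fold of 0.65 (0.52 to 0.77), Tgfbr2 by 0.57 (0.51 to 0.63) and Furin by 0.38 (0.30 to 0.46), while Tgfbi was lower at -0.39 (-0.48 to -0.31). Here 34.3% of 7249 genes passed the limit, 26.5% higher and 7.73% lower, and the median gene stood at 0.16. Relative to it 25.8% of genes passed, and Nrros (0.49) and Tgfbr2 (0.41) remained past the limit on the higher side and Tgfbi (-0.55) on the lower. In HER2 libraries 0 of 7 members passed it, among 3.76% of 7039 genes, and the folds ran from -0.18 for Tgfbr1 to 0.18 for Tgfbi. The wildtype late library enters both this comparison and the late genotype comparison, and it was the highest AM library for Nrros, Furin, Tgfbr1, Tgfbr2 and Skil. The difference between the stage folds of the genotypes was not tested. Among the other pathway genes Fn1 was lower at the late stage in both genotypes, at -3.21 in wildtype and -0.83 in HER2, with 115.5, 47.4, 12.5 and 26.7 CPM in the 4 libraries.

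**Figure D3:**
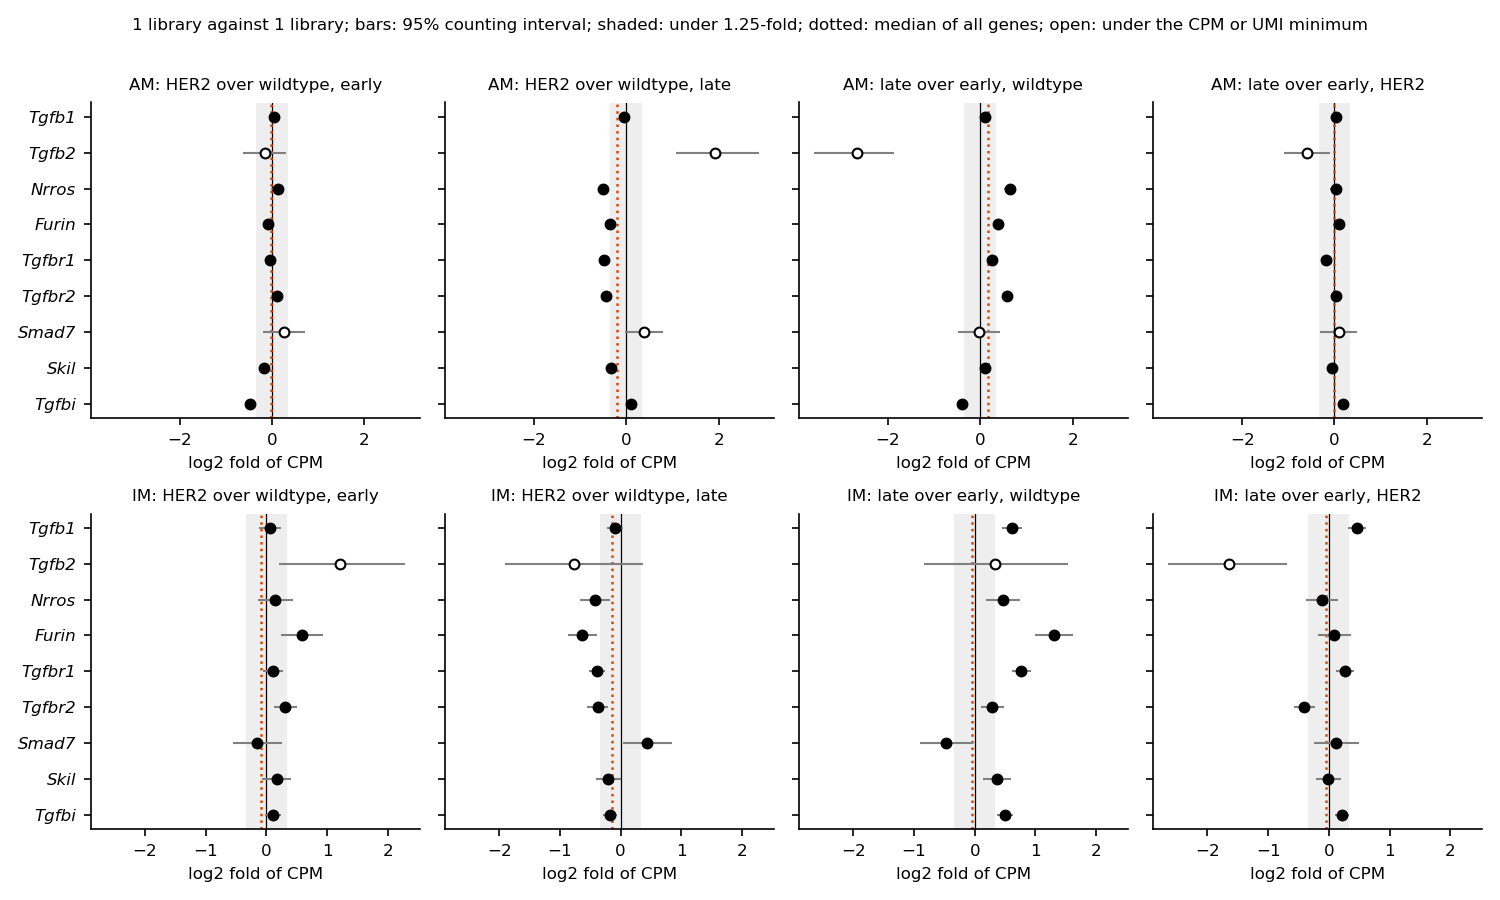
Log2 fold of CPM between single libraries (x axis) for each member in AM (top) and IM (bottom), with 95% counting intervals; the shaded band is the range within the limit of 0.32, the dotted line the median of all genes, and open points lie under the CPM or UMI minimum. The late genotype panel of AM shows Nrros, Furin, Tgfbr1, Tgfbr2 and Skil to the left, where the median gene also lies at -0.20.

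In IM the counts were smaller and the background of genes past the limit larger. Early, Furin was higher in HER2 (75.5 against 50.4 CPM, log2 fold 0.58, 0.24 to 0.93), 1 of 8 members tested, among 39.7% of 8137 genes. Without the IM cells holding other markers Furin stood at 79.2 and 53.6 CPM, and 4 members passed the limit. The others were Tgfbr2 (0.42), Skil (0.48) and Tgfb2, which then stood at 12.2 against 8.42 CPM and in which a few cells held most UMIs.

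Late, Furin was lower in HER2 (80.2 against 124 CPM, log2 fold -0.63, -0.87 to -0.39), and so were Nrros (-0.43), Tgfbr1 (-0.39) and Tgfbr2 (-0.38). Smad7 was higher, at 45.5 against 33.6 CPM (0.44, 0.04 to 0.85). These are 5 of 8 members, where 39.0% of 7909 genes passed the limit (10.2% higher, 28.7% lower) and the median gene stood at -0.14. The count was also 5 without the IM cells holding other markers. With median-ratio size factors it was 2, and with cells thinned to 2000 UMIs it was 1. Before thinning the median UMI count of an IM cell was 5234 in HER2 late and 3219 in wildtype late, the lowest of all libraries. The part of this difference in depth in the calls was not tested separately. Furin thus had genotype folds of opposite sign at the stages. In both IM and AM of the late stage Nrros, Furin, Tgfbr1 and Tgfbr2 were lower in HER2 than in wildtype. Both classes come from the same libraries, and the share of all genes lower in both was not computed. Relative to the median gene, only Furin (-0.49) was lower past the limit in IM and only Smad7 (0.58) higher, and in AM no member passed it.

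Between the stages 7 of 8 members passed the limit in wildtype IM, among 50.0% of 8231 genes (22.1% higher, 27.9% lower). Furin was higher late, at 124 against 50.4 CPM (log2 fold 1.301, 0.99 to 1.62), as were Tgfbr1 (0.77), Tgfb1 (0.61), Tgfbi (0.50), Nrros (0.46) and Skil (0.36), and Smad7 was lower (-0.47). The early library of this comparison is the one whose IM class held T cell RNA. Without the cells holding other markers Furin stood at 126 and 53.6 CPM and Tgfb1 at 331 and 215 CPM, while the fold of Skil became 0.70 and that of Tgfbi 0.36. The median UMI count of an IM cell was 3219 in wildtype late and 6440 in wildtype early. With cells thinned to 2000 UMIs the fold of Nrros turned to -0.10 and that of Skil was 0.10. The part of this difference in depth in the other folds was not tested separately. In HER2 IM 2 of 8 members passed, among 24.9% of 7800 genes: Tgfb1 was higher late, at 300.3 against 217 CPM (0.47, 0.31 to 0.62), and Tgfbr2 lower, at 162 against 214 CPM (-0.40, -0.57 to -0.23, and -0.019 with thinned cells). Tgfb1 was therefore higher at the late stage in IM of both genotypes, while in AM its folds were 0.11 and 0.03. Each of these folds sets 1 library against 1 library. How many of all genes were higher late in IM of both genotypes was not computed.

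AM with transcripts of the cell cycle differed from other AM in 7 of the 9 members. These AM held at least 3 UMIs of 16 cell cycle genes after each cell was thinned to 2000 UMIs. There were 198, 130, 128 and 183 of them in the 4 libraries (3.14 to 4.42% of AM with 2000 or more UMIs). Shallower AM, 357, 490, 171 and 340 cells, were left out of both sides, here and for the inflammatory chemokines below. The background was 38.1% of 10835 genes, 17.8% higher and 20.2% lower. Tgfbi was the member that rose. It stood at 231, 150.1, 153 and 190.4 CPM in these cells and at 99.4, 74.3, 78.5 and 83.4 CPM in the other AM, higher in 4 of 4 libraries, with a log2 fold of 0.94 ± 0.07 (adjusted p = 1.97e-16, edgeR, paired by library).

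In the same cells 6 members fell. Tgfbr2 stood at 140.1, 132, 162 and 146 CPM against 184, 201, 274 and 203 CPM, a log2 fold of -0.72 ± 0.06 (adjusted p = 3.18e-13, edgeR). Tgfbr1 stood at 128, 104, 142 and 100.1 CPM against 155, 151, 183 and 133 CPM, a log2 fold of -0.56 ± 0.07 (adjusted p = 2.75e-09). Both chains were lower in 4 of 4 libraries, and for Tgfbr2 every library of these cells lay below every library of the other AM.

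Nrros stood at 34.3, 23.1, 35.5 and 35.8 CPM against 37.8, 42.1, 60.1 and 42.3 CPM, with a log2 fold of -0.61 ± 0.12. The folds of Furin (-0.41 ± 0.08), Skil (-0.38 ± 0.08) and Tgfb1 (-0.32 ± 0.05) were smaller, each with adjusted p under the threshold and lower in 4 of 4 libraries. These folds include the TMM scaling. In plain CPM Furin stood at 84.5, 77.0, 112.5 and 95.2 against 103, 96.5, 132 and 103. Skil stood at 90.7, 85.95, 122 and 98.4 CPM against 119, 106, 126 and 101, close in the late libraries. Tgfb1 stood at 245, 248, 260 and 266 CPM against 271, 278, 290 and 283. Smad7 (1 to 5 UMIs a library) did not pass, at -0.61 ± 0.39 (adjusted p = 0.23), nor did Tgfb2 (0 to 10 UMIs), at 0.04 ± 0.44 (adjusted p = 0.96). The 7 calls and their directions also held with library totals, which moved the median gene by 0.18 on the log2 scale, and in the 12 other alternatives.

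The cells with cycle transcripts differed from other AM in more than the cycle. Their median UMI count was 5693 to 6767, against 3961 to 4831. The 6 genes of the AM rule held 11908 to 15442 CPM in them, against 16566 to 19481 in the other AM. Their C1q level was 107, 11.6, 130.2 and 218 CPM, against 42.8, 66.7, 80.9 and 159 in the other AM, and in wildtype early they held 229 CPM of T cell markers. The part of these differences in the result was not tested. Without wildtype early Tgfbi had a log2 fold of 0.90 and Tgfbr2 of -0.77.

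Among the pathway lists in AM with cycle transcripts, 1 of 4 ligands fell, 5 of 11 receptors fell and 1 rose, 3 of 7 latency genes fell, and targets were split, 6 rising and 6 falling of 16 (4 and 1 receptors, 2 and 1 latency genes, and 4 and 6 targets with library totals, falling and rising). Of 13 Smads and partners 1 rose (3 with library totals), and of 14 inhibitors 1 rose and 2 fell under either scaling. Examples chosen after their values were seen are the cell cycle inhibitors Cdkn1a (1.05 ± 0.07) and Cdkn1b (0.83 ± 0.08), which rose, and Junb (-1.10 ± 0.07), which fell.

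AM with inflammatory chemokine transcripts were fewer, 72, 57, 72 and 106 cells in the order above. They held at least 3 UMIs of 9 cytokine and chemokine genes after thinning to 2000 UMIs. Here 2 of 9 members passed, both higher, against a background of 3.88% of 10609 genes (2.68% higher, 1.21% lower). Tgfbi stood at 147, 145.5, 109 and 174 CPM in them and at 107, 76.6, 80.9 and 86.3 CPM in the other AM, a log2 fold of 0.66 ± 0.11 (adjusted p = 8.25e-07). Skil stood at 134, 145.5, 207 and 157 CPM against 117, 104, 124 and 99.6 CPM, a log2 fold of 0.48 ± 0.11 (adjusted p = 0.0005).

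Neither gene passed in edgeR without a replicate block, with adjusted p of 0.080 for Tgfbi and 0.10 for Skil. In that fit 2 of 9 members had an unadjusted p under 0.05, and DESeq2 with the block called 2. Skil also missed the threshold without wildtype late (adjusted p = 0.077). Tgfbr1 did not pass here (0.24 ± 0.10, adjusted p = 0.19) but did with library totals (adjusted p = 0.040). The fold of Tgfb1 was 0.00, and its sign turned under 5 alternatives. Of the pathway lists, 6 of 16 targets and 2 of 4 ligands rose, as did 2 of 14 inhibitors and 1 of 13 Smads and partners. Of 11 receptors and of 7 latency and activation genes 0 passed, and no list had a gene that fell. Inhba (4.20 ± 0.37), whose product activin A is an inflammatory cytokine of the family, and Junb (1.79 ± 0.07) are examples chosen after their values were seen. AM with inflammatory chemokine transcripts also differed from the other AM elsewhere. Their C1q level was 23.6, 40.0, 222.5 and 211 CPM, against 47.4, 64.6, 80.2 and 161 CPM. Gm42418 took 12.6 to 13.5% of their UMIs, against 16.4 to 19.5%. The part of these differences in the result was not tested.

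**Figure D4:**
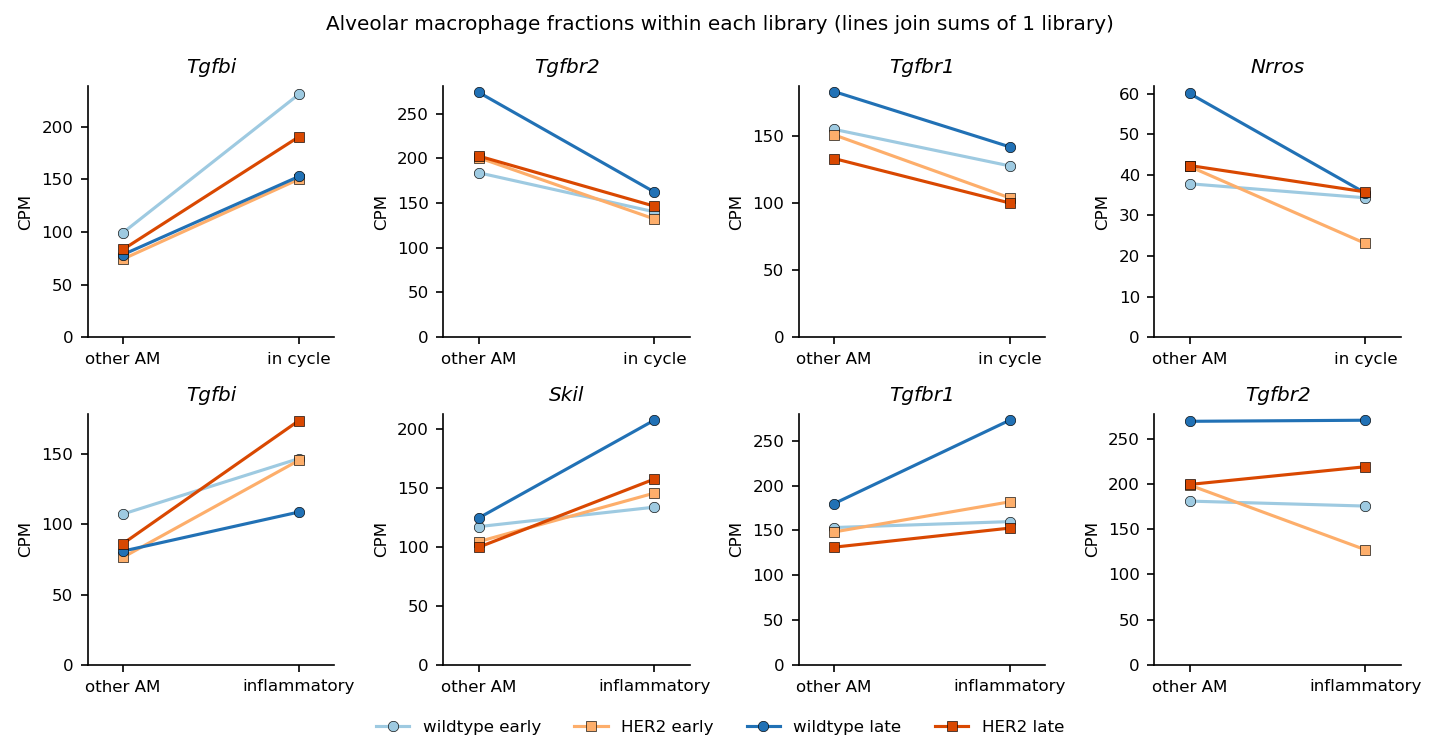
Levels in CPM (y axes, linear, from 0) of 4 members in AM with cell cycle transcripts (top) and with inflammatory chemokine transcripts (bottom), each joined to the other AM of its library; the 4 libraries are the points. Tgfbi rises and Tgfbr2, Tgfbr1 and Nrros fall in the cycle panels, and Tgfbi and Skil rise in the chemokine panels.

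**Figure D5:**
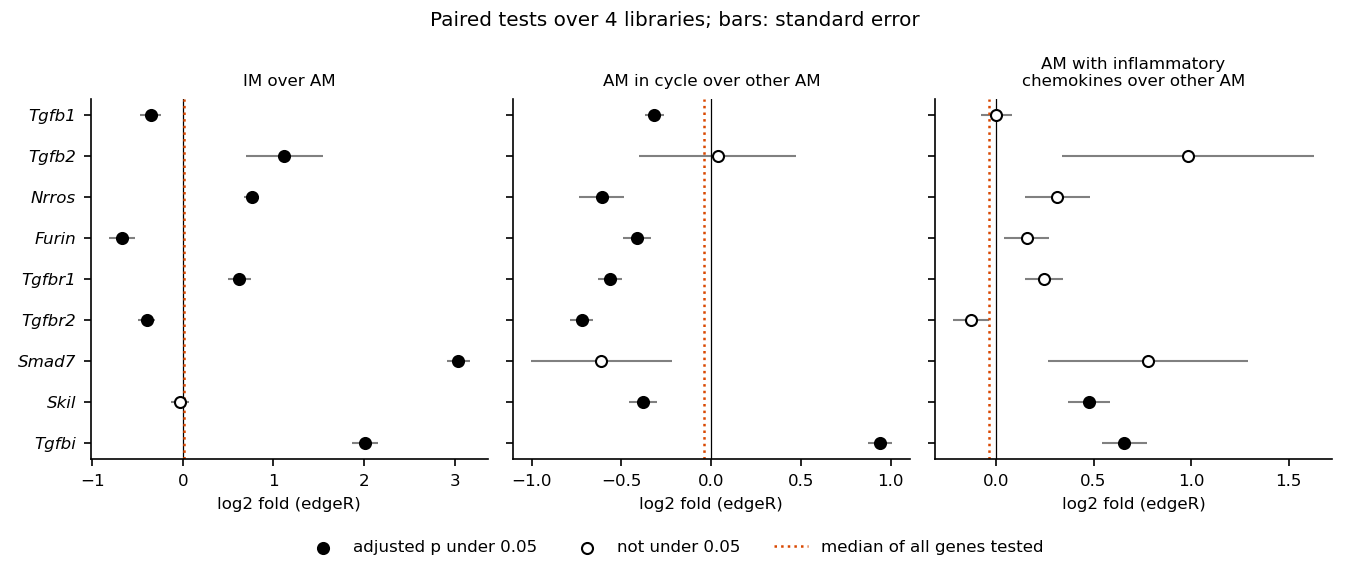
Log2 fold with its SE (x axis) of each member in the 3 paired tests over the 4 libraries; filled points passed the adjusted p threshold of edgeR's quasi-likelihood test. Smad7 and Tgfbi lie furthest to the right in IM over AM, at 3.04 and 2.01, and Tgfbr2 furthest to the left in AM with cycle transcripts, at -0.72.

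The other cells gave a further check on where the members are held. Among them the levels by marker list, pooled over the 4 libraries, put Tgfbi at 238 CPM in 68 cells with monocyte markers and 134 CPM in 58 with dendritic markers, against 13.8 CPM in the endothelial ones. Smad7 was high in endothelial cells of every library, at 248.8, 333, 290 and 355 CPM. Tgfb2 was 49.4 CPM (24.7 to 88.5) in the 33 cells with fibroblast markers, from 11 UMIs, and 12.4 CPM in endothelial cells. Tgfbr2 was 274 CPM in the fibroblast cells. These other cells are not groups of the design, and in wildtype early 48.9% of them carried T cell markers, against 10.5 to 18.2% in the other libraries.

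The genes whose levels ran most like a member's over the 12 sums of library and class (AM, IM, other) were sought among 4842 genes. Tgfb1 was followed most closely by Pianp (r = 0.984) and Pfkfb4 (0.9801), Nrros by Hpgds (0.978) and Zmiz2 (0.971), and Furin by Apobr (0.977) and Nucb2 (0.966). Tgfbr1 went with Siglece (0.987) and Nckap1l (0.984), and Tgfbr2 with Tpp1 and Lamp2 (both 0.982). Smad7 went with Slfn5 (0.997) and Csrp1 (0.996), Tgfbi with Il10ra (0.988) and Lst1 (0.984), Skil with Ccdc88a (0.931) and Actr3 (0.925) and Tgfb2 with Pltp (0.864) and Nenf (0.853). The 12 sums share libraries and classes, so these correlations describe the pattern over classes above all.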

How the data were processed

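Single-cell libraries of sorted lung macrophages were analysed, 1 for each of the 4 groups. The authors deposited raw UMI counts per gene and barcode with no cell filter. The submitters' processing notes name Cell Ranger 5.0.1 with mm10, and Cell Ranger 4 is named per the file headers. The authors also deposited average signal per gene over AM cells, scaled to a sum of 10000 over 15906 genes, with the choice of cells not given in the sources used here.

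Some genes of the pathway and marker lists are counted in their lists but not reported by name here. Cells were kept and classed as described in the report, with no doublet caller (an alternative left out the 2% of cells with most UMIs). The limits removed 12.8 to 21.0% of barcodes for mitochondrial UMIs. Counts were summed per library and class. Between libraries, folds of CPM with exact conditional binomial 95% intervals were given without a test, and a log2 fold of 0.32 among genes with at least 10 CPM and 30 UMIs was called. Cell classes were compared by edgeR 4.0.16 (quasi-likelihood, TMM, library as block, Benjamini-Hochberg over all genes), with DESeq2 1.42.0 as an alternative, in R 4.3.3. The block pairs cells of 1 library, and the deviations of AM and IM of the same library correlated at 0.349 to 0.587 over 2824 genes. The edgeR script was tested on simulated data. Motifs and levels were read with Python 3.11.15 and 3′ ends were compared with BLAST 2.17.0.

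The members and lists were chosen with earlier results of these data known. Named are the 9 members, the pathway genes of smallest p between IM and AM (at most 4 a list), those past that limit in AM in both stages or genotypes or else the 3 largest on each side, and the 2 genes most like each member. Each of the 4 libraries is a different genotype and stage, so the spread over them also holds genotype and stage. The sources do not say whether a library pooled mice. Protein comparisons were not run here. Precision follows from the depth: 3 UMIs are 0.109 to 0.165 CPM in AM and 0.776 to 1.33 CPM in IM.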

Additional observations from a re-analysis of the deposited data

Results flagged for a closer look

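Furin in IM had genotype folds of opposite direction at the stages, with a log2 fold of HER2 over wildtype of 0.58 early and -0.63 late. Tgfbi between the stages of wildtype mice moved in opposite directions in the classes, with a log2 fold of late over early of -0.39 in AM and 0.50 in IM. These differences were not tested, since each group is 1 library, and the IM class of wildtype early, which held T cell RNA, enters the early Furin and the IM Tgfbi values. Without its cells holding other markers Furin stood at 0.56 and Tgfbi at 0.36.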

How the results depend on the processing

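Under the alternatives, 267 of 294 folds between libraries in AM and 339 of 352 in IM stayed inside the main fold's counting interval. Of the others, 27 and 12 moved outside it and 1, in IM, reversed. A fold inside the interval can still have changed in value or call. The intervals are wider in IM, where counts are smaller, so these shares do not show that IM was the steadier class. Of the paired tests 328 of 359 kept direction and call. The number of members past the fold limit in late AM by genotype (5) was 0 with median-ratio size factors, 3 without Gm42418, mitochondrial and ribosomal protein genes and 3 with thinned cells. In AM of HER2 mice between stages it was 1 with free RNA subtracted, against 0. In early IM it was 1, and 2 with a UMI minimum of 2000, free RNA subtracted or size factors, 3 without Gm42418, mitochondrial and ribosomal protein genes and 4 without cells holding other markers. In late IM (5) it was 2 with size factors and 1 with thinned cells. Nrros in wildtype IM between stages became -0.10 with thinned cells.

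Without a replicate block the members called were 6 between IM and AM and 0 in AM with inflammatory chemokines (2 with the block, 1 to 2 when a library was left out), and 7 remained the count in AM with cycle transcripts. Reversed signs, none past the threshold, were Skil between IM and AM (0.22 with library totals, 0.035 without IM cells holding other markers, -0.13 to 0.069 with a library left out) and Tgfb2 in AM with cycle transcripts (-0.13 with DESeq2, -0.022 with no filter, -0.070 with a UMI minimum of 3000, -0.58 to 0.41 with a library left out). In AM with inflammatory chemokines they were Tgfb2 (-1.18 with DESeq2) and Tgfb1 (-0.037 with no filter, -0.016 with free RNA subtracted, -0.038 with 5 list UMIs, -0.030 to 0.032 with a library left out). With 5 list UMIs Nrros (-0.036) and Furin (-0.033) turned too. The causes were not tested. The alternatives without IM cells holding other markers and with library totals were chosen after seeing the data. Tgfb2 gave no value in AM with inflammatory chemokines without HER2 early, and Smad7 and Tgfb2 in AM are limited by depth.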
